A study of Spirodela polyrhiza with 12 samples.

Results

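In leaf tissue of Spirodela polyrhiza, the giant duckweed, 111 genes differed by less than 1.5-fold in mean transcript level between indoor and middle temperature. At high temperature their mean was at least 2.5-fold higher than at both. These limits hold after each library was scaled by its median level, and with 0.5 added to each value, which hides differences between levels near 0. Without that scaling the rises at high temperature were smaller, as given below. The genes were 111 of 18099 in the deposited table (0.613%). RNA was sequenced from 12 leaf libraries in 3 groups of 4, labelled indoor temperature (CK, the control), middle temperature (MTS) and high temperature (HTS). The labels give no temperature in degrees, exposure time, strain or age, and no agent other than temperature. Nothing in them states that replicates were grown as independent cultures, so the spread behind every p-value may not be that between cultures. Counts of replicate libraries differed by more than counting error, with chi-square values of 50.2 to 186 for each degree of freedom. Whether this spread arose between cultures or in the handling of a shared culture was not tested.

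The members were chosen from the measured values themselves. Deposited FPKM (fragments per kilobase of transcript, at a fixed sequencing depth) were divided by each library's median over the 12316 genes whose FPKM reached 1 in all 12 libraries, and multiplied by 15. On this scale, called scaled FPKM below, a value of 15 is the median level of a steadily detected gene. With 0.5 added to each value, the group means had to lie within 1.5-fold of each other at middle and indoor temperature, and the high mean had to be at least 2.5 times both. The largest group mean had to be at least 5. Genes at least 16-fold higher at high than at indoor temperature with a high mean of at least 200 were left out, which removed 7 of 118 genes. Ratios below are ratios of group means with the 0.5 added unless another basis is given. Fitted ratios, folds against a floor of counts and percentages of a neighbour's mean do not use it. Because the rule used all 3 groups, the levels and ratios are given as a description, without a test.

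Plants answer heat by releasing heat shock transcription factors from repression. These bind heat shock elements in promoters and switch on genes for chaperones, the proteins that keep other proteins folded and return aggregated ones to solution. Some of these genes answer mild warming and others only severe heat. Duckweeds float on still water and their body is reduced to a leaf-like frond, so the whole shoot is exposed to the temperature of air and water at once. No gene names accompany the identifiers in the files, so the genes are given by identifier, no role can be given to any of them, and leaf marker genes were not checked. In whole tissue, fewer cells of a type and less RNA per cell cannot be told apart.

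**Figure D1:**
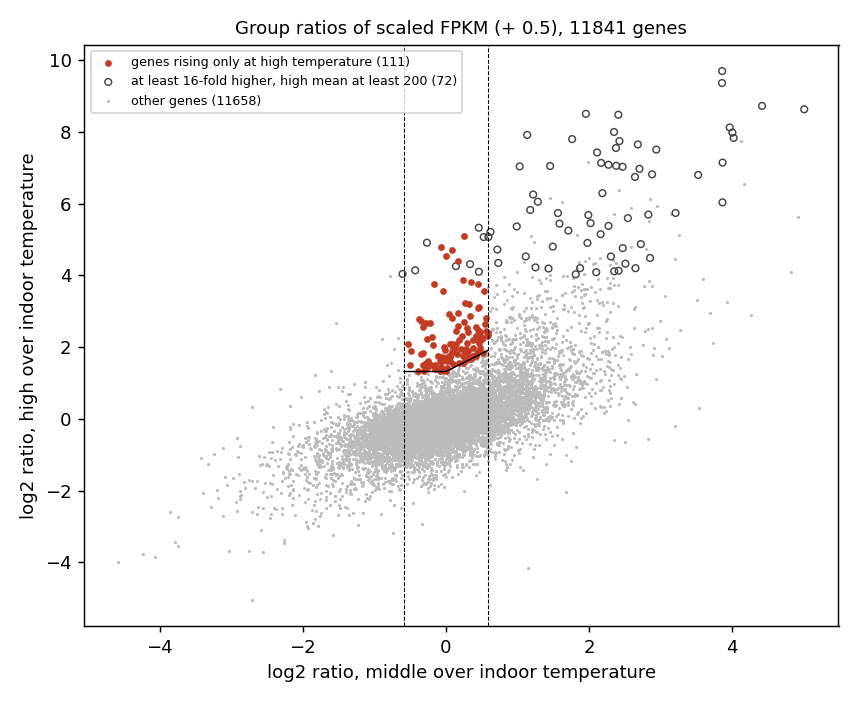
Each point is 1 of 11841 genes with a largest group mean of at least 5, by its log2 ratio of middle over indoor temperature (horizontal) and of high over indoor temperature (vertical), both from scaled FPKM with 0.5 added. The 111 genes (filled) lie between the dashed lines, which mark a 1.5-fold difference of middle from indoor temperature, and above the solid line set by the 2.5-fold criteria; open circles are the 72 genes at least 16-fold higher with a high mean of at least 200.

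Most of the ratios were modest. The ratio of high over indoor temperature had a median of 4.02, with quartiles of 3.32 and 5.92 and a highest value of 34.6. It was under 4 in 55 genes, from 4 to 8 in 41, from 8 to 16 in 10 and above 16 in 5. The ratio of high over middle temperature had a median of 3.59, and that of middle over indoor temperature a median of 1.12. Over all genes with a largest group mean of at least 5, these 3 medians were 0.982, 1.03 and 0.961.

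The genes ranged from nearly silent to abundant. The mean scaled FPKM at indoor temperature was under 1 in 8 genes, from 1 to 10 in 48, from 10 to 100 in 45 and at least 100 in 10. The median over the genes was 9.796 in the indoor group, 12.7 in the middle group and 46.5 in the high group. Together they held 0.855% ± 0.0695 of a library's estimated counts at indoor, 1.002% ± 0.0867 at middle temperature and 2.27% ± 0.213 at high temperature (SD, n = 4 libraries each). The 72 genes at least 16-fold higher with a high mean of at least 200 held 0.651% ± 0.189, 3.18% ± 0.984 and 29.7% ± 3.41 in the same order.

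Depth and scaling bear on these values. Libraries held 23655239 to 32711880 estimated counts. The median FPKM of the 12316 genes used for scaling was 21.5 to 22.8 in indoor, 22.4 to 25.96 in middle and 12.1 to 14.8 in high libraries, so scaling raised high-temperature values against the others. Relative to scaled values, deposited FPKM moved the log2 ratio of the median gene by -0.67 for high over indoor and -0.78 for high over middle temperature, and by 0.11 for middle over indoor temperature. In deposited FPKM the mean was still higher at high than at indoor temperature in 111 of 111 genes and higher at high than at middle temperature in 111, with median ratios of 2.64 and 2.07 and lowest ratios of 1.55 and 1.44. The ratio of high over indoor temperature in deposited FPKM was at least 2.5 in 59 of the 111 genes. The rule applied to deposited FPKM gave 42 genes, of which 37 were among the 111. That is 33.3% of the 111 and 88.1% of the 42.

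**Figure D2:**
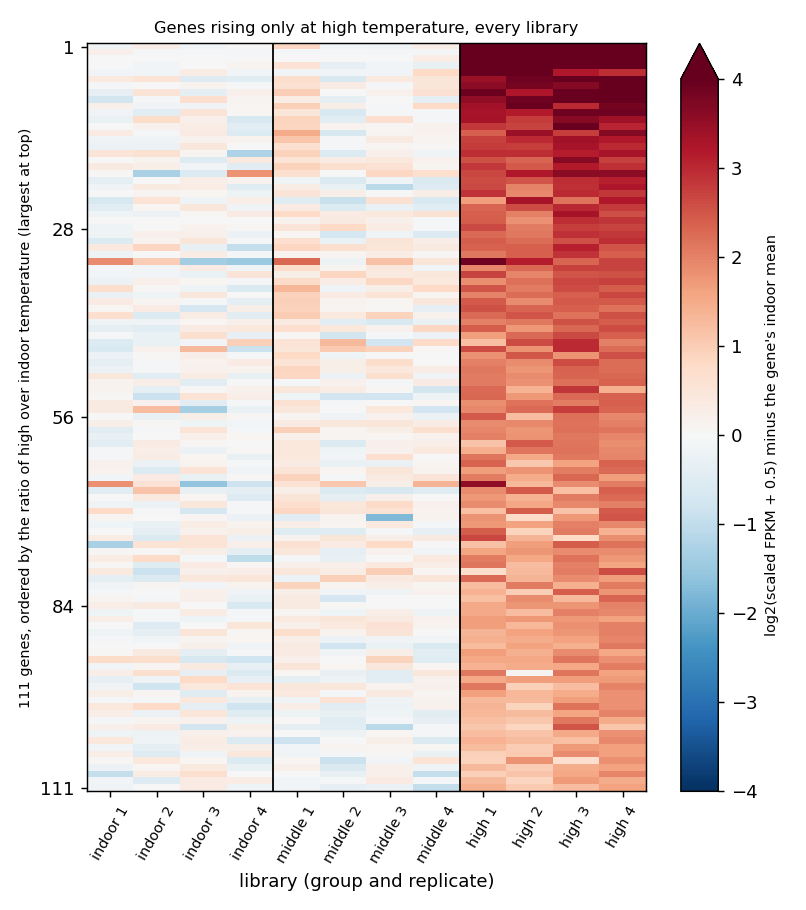
Rows are the 111 genes, ordered by the ratio of high over indoor temperature, and columns are the 12 libraries. Colour gives log2(scaled FPKM + 0.5) minus the gene's mean over the indoor libraries, with values above 4 drawn in the colour of 4; the indoor and middle columns stay near 0 and the high columns are raised in nearly every row.

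All 4 high libraries lay above all 8 indoor and middle libraries in 107 of the 111 genes. The same held for 8.15% of the genes with a largest group mean of at least 5, and since the rule asked for this difference nothing is read from the contrast. The groups overlapped in 4 genes, Spipo18G0022100.v2, Spipo0G0172000.v2, Spipo4G0076000.v2 and Spipo15G0015300.v2. Spipo15G0015300.v2 was among the most abundant members: it had 133, 175, 87.5 and 74.8 in indoor replicates 1 to 4, 116, 89.9, 82.7 and 153 in middle replicates 1 to 4 and 478, 120.1, 493 and 341 in high replicates 1 to 4. High replicate 2 was within the range of the controls, and the 3 other high libraries were above it. Spipo0G0172000.v2 had 7.31, 2.82, 0.243 and 0.746 in indoor replicates 1 to 4, 2.81, 4.18, 2.08 and 5.14 in middle replicates 1 to 4 and 25.5, 4.902, 7.67 and 8.66 in high replicates 1 to 4. High replicate 1 was by far the highest, and high replicate 2 was below indoor replicate 1.

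In a fit over the whole table (edgeR's quasi-likelihood test with TMM scaling, Benjamini-Hochberg adjusted p under 0.05), all 111 genes passed the filter on low values. High temperature exceeded indoor temperature in the calls of 110 members, against 17.1% of the 15209 genes tested, and exceeded middle temperature in those of 109, against 15.9%. Both comparisons share the high libraries, and 0 members were called lower in either. The fit uses the contrasts of the rule, so these counts describe the members and support nothing further. Between middle and indoor temperature 3 members were called higher and 0 lower, against 19.2% and 17.7% of the genes tested. They were Spipo10G0025000.v2, Spipo5G0066700.v2 and Spipo8G0053400.v2. Spipo10G0025000.v2 had mean scaled FPKM of only 0.0249 at indoor and 0.169 at middle temperature. Its ratio of middle over indoor temperature was 1.27 with 0.5 added, whereas the fitted log2 ratio was 2.43 (edgeR adjusted p = 0.0483). In the comparison of middle with indoor temperature 9 members had an unadjusted edgeR p under 0.05, which was not counted over all genes. DESeq2 called 5 members higher and 0 lower, against 3322 and 2964 of the 15209 genes tested. The member not called against indoor temperature was Spipo0G0172000.v2 (edgeR adjusted p = 0.0799), and those not called against middle temperature were Spipo0G0172000.v2 (edgeR adjusted p = 0.134) and Spipo8G0027000.v2 (edgeR adjusted p = 0.106). In the whole table, high against indoor temperature gave 2596 higher and 2396 lower genes with TMM, and 1170 and 8699 with library totals, which still called 105 members higher. High against middle temperature gave 2417 higher and 2199 lower genes with TMM, and 505 and 9562 with library totals, which called 97 members higher. Middle against indoor temperature gave 2927 higher and 2687 lower genes with TMM, and 3385 and 1813 with library totals, which called 11 members higher. With library totals the median fitted log2 ratio over all genes was -0.73 for high over indoor, -0.82 for high over middle and 0.12 for middle over indoor temperature.

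Of the 10 largest ratios, 5 belonged to genes that were at or near 0 outside the high group. Spipo10G0024400.v2 had a scaled FPKM of 0, 0.171, 0.0119 and 0.0548 in indoor replicates 1 to 4, 0.487, 0.0194, 0 and 0.164 in middle replicates 1 to 4 and 18.3, 17.9, 16.5 and 22.5 in high replicates 1 to 4. The high libraries lay within a narrow band far above the others, and the ratio of high over indoor temperature was 34.6. Spipo10G0025200.v2 had 0.106, 0, 0 and 0 in indoor replicates 1 to 4, 0, 0, 0 and 0 in middle replicates 1 to 4 and 15.9, 9.07, 17.98 and 13.3 in high replicates 1 to 4. It was listed at 0 in every middle library. Against a floor of 12 counts per library, without the 0.5, the high mean was at least 27.7-fold higher than at middle temperature. Spipo3G0004800.v2 had 0, 0, 0 and 0 in indoor replicates 1 to 4, 0, 0, 0 and 0.112 in middle replicates 1 to 4 and 10.2, 14.9, 12.05 and 12.7 in high replicates 1 to 4. It was listed at 0 in every indoor library, and against the same floor its high mean was at least 32.5-fold higher than at indoor temperature. The floor covers counting error only. For the 8 genes with an indoor mean under 1, the 0.5 added sets the size of the ratio: with 0.1 added, the log2 ratio of Spipo10G0024400.v2 was 6.89 in place of 5.11. These 8 genes reached high means of 5.38 to 18.8, so they stayed near or below the level of a median gene.

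Spipo2G0037400.v2 was low but detected in every library. It had 1.14, 1.05, 1.17 and 1.27 in indoor replicates 1 to 4, 1.95, 0.825, 1.04 and 0.846 in middle replicates 1 to 4 and 37.5, 47.4, 24.96 and 43.2 in high replicates 1 to 4, a ratio of high over indoor temperature of 23.4. Middle replicate 1 lay above all indoor libraries and the other middle libraries lay below them, and every high library lay far above both groups. Spipo11G0061300.v2 averaged 41.2 ± 10.6 at high and 2.34 ± 1.05 at indoor temperature (SD, n = 4 each), a ratio of 14.7. Spipo13G0007500.v2 averaged 99.4 ± 22.04 at high and 6.82 ± 2.26 at indoor temperature, a ratio of 13.6, and Spipo17G0037700.v2 19.7 ± 5.83 and 1.19 ± 0.202, a ratio of 11.9. In these 3 genes the middle means were 2.85, 9.47 and 1.95, each somewhat above the indoor mean. Spipo20G0036300.v2 joined a large ratio to a high level. It had 40.1, 64.9, 106 and 71.4 in indoor replicates 1 to 4, 82.01, 50.6, 67.5 and 52.3 in middle replicates 1 to 4 and 785, 988, 1038 and 1062 in high replicates 1 to 4. Middle libraries spanned a narrower range than indoor ones, all high libraries stood far above both, and the ratio of high over middle temperature was 15.2.

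**Figure D3:**
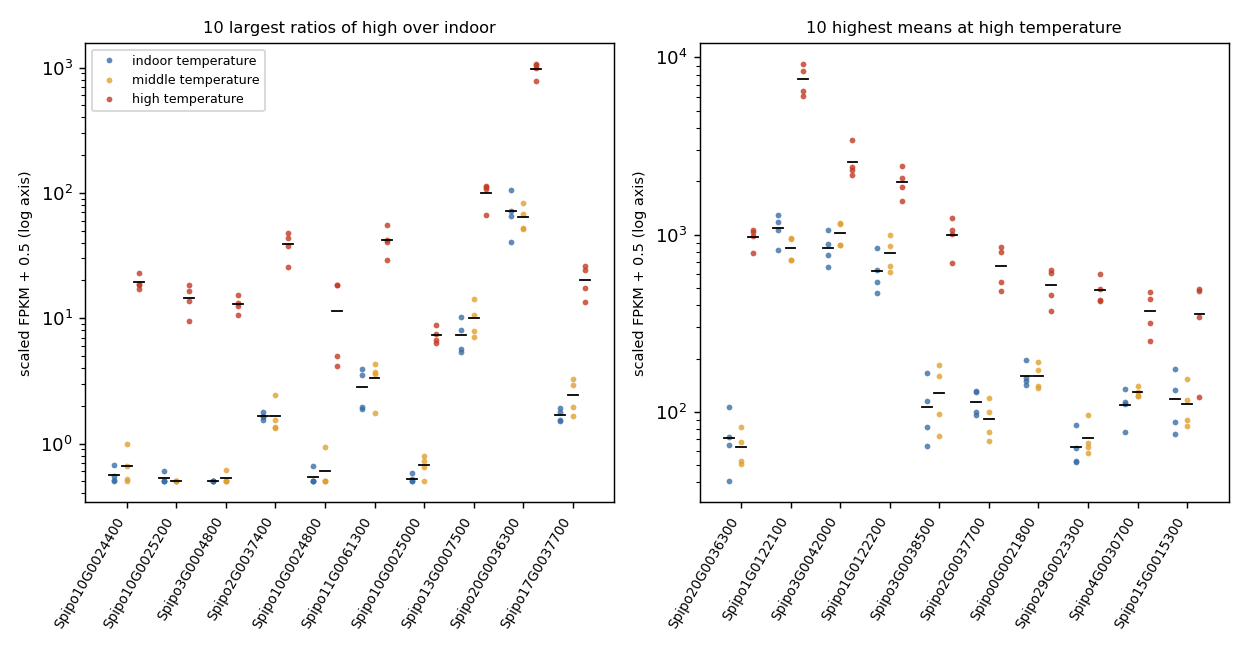
Points are single libraries (4 per group) and black bars are group means of scaled FPKM with 0.5 added, on a log axis, in the order indoor, middle and high temperature for each gene. The left panel holds the 10 genes with the largest ratios of high over indoor temperature, 5 of which sit at the lower edge of the axis outside the high group, and the right panel the 10 genes with the highest means at high temperature, led by Spipo1G0122100.v2 with a mean of 7522.

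The most abundant members were already well expressed in the controls. Spipo1G0122100.v2 had 819, 1057, 1292 and 1172 in indoor replicates 1 to 4, 951, 722, 947 and 721 in middle replicates 1 to 4 and 6485, 6071, 8373 and 9160.0 in high replicates 1 to 4. The high libraries exceeded all others, and the middle libraries lay at or below the middle of the indoor range, with ratios of 6.93 for high over indoor and 0.7698 for middle over indoor temperature. Spipo3G0042000.v2 had 769, 888, 1059 and 659 in indoor replicates 1 to 4, 1169, 871, 1147 and 878 in middle replicates 1 to 4 and 2166, 2304, 2403 and 3400.4 in high replicates 1 to 4. Its ratio of high over middle temperature, 2.53, was close to the threshold. Spipo1G0122200.v2, whose identifier follows that of Spipo1G0122100.v2, averaged 1981 ± 372 at high and 620.4 ± 161 at indoor temperature (SD, n = 4 each). These 3 genes together held 0.401% ± 0.0587 of the counts at indoor, 0.479% ± 0.0504 at middle temperature and 0.978% ± 0.09702 at high temperature (SD, n = 4 libraries each).

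Below these 3, Spipo3G0038500.v2 averaged 999.7 ± 229.7 at high and 106 ± 44.5 at indoor temperature, and Spipo2G0037700.v2 669 ± 184 and 113 ± 18.6 (SD, n = 4 each). For Spipo0G0021800.v2 the means were 517 ± 125 at high and 159.6 ± 23.9 at indoor temperature, and for Spipo29G0023300.v2 487 ± 83.9 and 62.5 ± 15.001. In Spipo4G0030700.v2 they were 369 ± 104 at high and 109 ± 24.04 at indoor temperature. Spipo0G0021800.v2 had a ratio of middle over indoor temperature of 1.0002, with means of 159.6 ± 26.6 at middle and 159.6 ± 23.9 at indoor temperature. Over the 10 genes with an indoor mean of at least 100, the ratio of high over indoor temperature ran from 2.85 to 9.37.

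The thresholds cut through a continuous range. The lowest ratios of high over middle temperature inside were 2.502 for Spipo17G0038400.v2 and 2.51 for Spipo0G0077800.v2, and the nearest outside were 2.49 for Spipo4G0063300.v2 and 2.47 for Spipo3G0093100.v2. At the upper limit of middle over indoor temperature, Spipo8G0053400.v2 and Spipo20G0009000.v2 were inside at 1.499 and 1.496, and Spipo1G0104000.v2 and Spipo16G0034700.v2 outside at 1.501 and 1.505. At the lower limit, Spipo4G0030600.v2 and Spipo0G0071800.v2 were inside at 0.693 and 0.705, and Spipo21G0035000.v2 and Spipo12G0008700.v2 outside at 0.631 and 0.628. The lowest largest group means inside were 5.63 for Spipo15G0015400.v2 and 5.74 for Spipo0G0042500.v2, and the nearest outside 4.76 for Spipo15G0035700.v2 and 4.75 for Spipo0G0111100.v2.

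The 7 genes left out met the same criteria on the ratios and were set apart by a ratio of at least 16 together with a high mean of at least 200. The members with ratios above 16 had high means below that limit. The left-out genes ran from Spipo14G0025100.v2, with a mean of 1174 at high and 67.9 at indoor temperature and a ratio of 17.2, to Spipo2G0037300.v2, with 4058 and 100.4 and a ratio of 40.2. Just outside stood Spipo14G0025100.v2 and Spipo14G0056300.v2, the last with a ratio of 17.7. Just inside stood Spipo20G0036300.v2, with a ratio of 13.6, and Spipo2G0107100.v2, with a ratio of 11.8 and means of 326 ± 82.8 at high and 27.1 ± 7.84 at indoor temperature (SD, n = 4 each).

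The identifiers of the members were not spread evenly, a feature the rule did not use. Each identifier holds a number after Spipo, from 0 to 32, and after G a number that runs in steps of 100. The files give no genome positions, so closeness here is closeness of identifiers. The genes at least 16-fold higher at high than at indoor temperature with a high mean of at least 200, called very strongly risen genes below, numbered 72. Of the 103 other genes 1 step from one of them and with a largest group mean of at least 5, 14 were members (13.6%). Of the 11666 genes farther away, 97 were members (0.831%). The 14 members stood beside 12 of the 72 very strongly risen genes. Several of the 14 shared a run of Spipo10 identifiers, described below, and others flanked the same gene, Spipo29G0023400.v2. Within 2 steps the members were 15 of 196 genes (7.65%), within 5 steps 23 of 450 (5.11%) and within 20 steps 34 of 1570 (2.17%). The nearness was not particular to the members. Genes that were higher at both steps of temperature (middle over indoor at least 1.5 and high over middle at least 2.5) made up 27 of the same 103 genes (26.2%), against 1.46% of all genes with a largest group mean of at least 5 outside the very strongly risen ones. Whether reads were shared between similar gene copies was not tested.

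The 14 members 1 step from a very strongly risen gene had a median ratio of high over indoor temperature of 7.51, against 3.95 in the other 97. They included 4 of the 10 largest ratios. The densest run lay among the identifiers Spipo10G0022700.v2 to Spipo10G0025600.v2, where 27 genes were listed, 7 of them members and 6 very strongly risen. Spipo10G0024400.v2 followed Spipo10G0024300.v2, which had 22.98, 45.1, 53.6 and 22.4 in indoor replicates 1 to 4, 368, 66.3, 108 and 232 in middle replicates 1 to 4 and 10438, 10263, 14352 and 17016 in high replicates 1 to 4. The member stood at 0.145% of its neighbour's mean at high temperature. The neighbour had a ratio of middle over indoor temperature of 5.31, whereas the member's, 1.19, was near 1 at levels where the 0.5 added decides the ratio. Spipo10G0025000.v2 and Spipo10G0025200.v2 stood on either side of Spipo10G0025100.v2, at 0.0575% and 0.118% of its high mean. Genes of the run that were neither members nor very strongly risen varied. Spipo10G0025300.v2, 1 step from Spipo10G0025200.v2, averaged 71.1 at high and 1.49 at middle temperature and was listed at 0 in every indoor library. Spipo10G0023700.v2 averaged 21.9 at high and 1.33 at indoor temperature, and Spipo10G0023000.v2 averaged 16.1 at high and 4.63 at indoor temperature. Spipo10G0024100.v2 averaged 17.2 at high and 13.2 at indoor temperature, and Spipo10G0024500.v2 and Spipo10G0024600.v2 stayed near 0 in all groups. Spipo10G0023500.v2 had 20.8, 23.7, 0 and 19.6 in indoor replicates 1 to 4 and 16.6, 22.2, 16.2 and 0 in middle replicates 1 to 4. In high replicates 1 to 4 it had 20.6, 0, 0 and 0. Its means of 5.16 at high and 15.99 at indoor temperature thus depend on which libraries listed it at 0. The genes of this run that are not members were named after their values were seen.

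**Figure D4:**
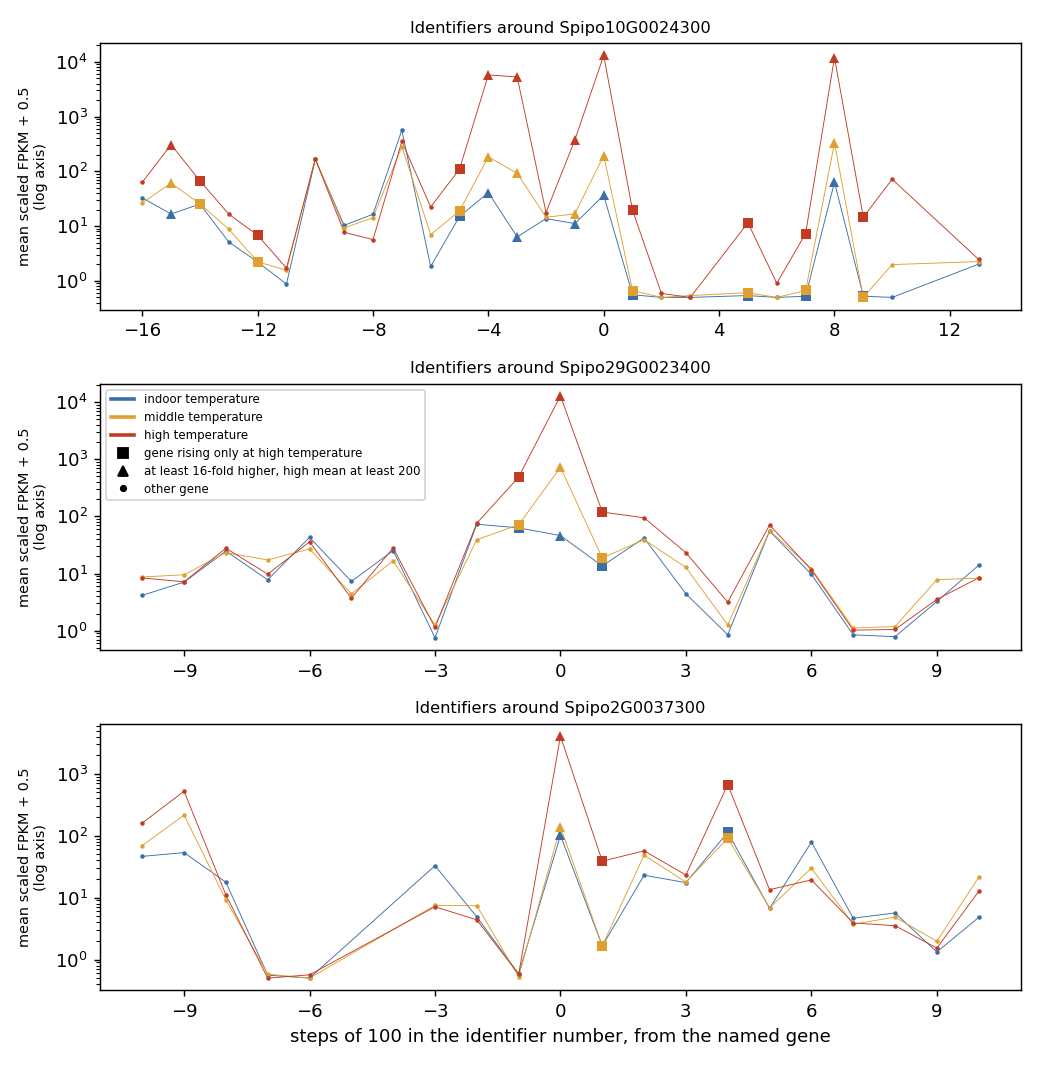
Mean scaled FPKM with 0.5 added (log axis) is plotted against steps of 100 in the identifier number around 3 very strongly risen genes, one panel each, for indoor, middle and high temperature. Squares are members, triangles very strongly risen genes and dots other genes; the high-temperature line stands above the others at the very strongly risen genes, at members such as Spipo29G0023300.v2 and Spipo2G0037700.v2, and at some other genes, such as Spipo10G0025300.v2 and Spipo2G0036400.v2.

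Other neighbourhoods held abundant members. Spipo29G0023300.v2 and Spipo29G0023500.v2 flanked Spipo29G0023400.v2, which averaged 12868 ± 2794 at high and 45.6 ± 22.8 at indoor temperature (SD, n = 4 each). Their own ratios of high over indoor temperature were 7.74 and 8.76. At middle temperature the gene between them had already reached a ratio of 15.6 over indoor temperature, and the flanking members 1.13 and 1.38. Spipo2G0037400.v2 followed Spipo2G0037300.v2, one of the genes left out for size, and stood at 0.943% of its high mean. Spipo2G0037700.v2, 4 steps from the same gene, had a ratio of 5.89.

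Members also stood beside each other. In 8 cases both of a pair of consecutive identifiers were members, 16 genes in all. Of the genes 1 step from a member with a largest group mean of at least 5, 16 of 164 were themselves members (9.76%), against 0.937% of all such genes. Some pairs had like ratios: Spipo9G0046100.v2 and Spipo9G0046200.v2 had ratios of high over indoor temperature of 3.83 and 3.86, with high means of 210.1 and 118. Spipo4G0027900.v2 and Spipo4G0028000.v2 had ratios of 4.38 and 3.95, with high means of 160.2 and 103. Others differed in level, as Spipo3G0038400.v2 and Spipo3G0038500.v2 did, with high means of 12.4 and 999.7 and ratios of 2.504 and 9.37. These pairs were chosen after their values were seen. By the number after Spipo, members occurred in 24 of 33 classes, from 0 of 455 genes with a largest group mean of at least 5 in Spipo6 to 8 of 281 (2.85%) in Spipo10 and 14 of 752 (1.86%) in Spipo4.

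Within the groups, the members deviated together in single libraries. The rule used group means, to which every library contributes. The contrast with all genes is therefore not independent of the choice of members and is given as a description. Among the middle libraries, replicate 1 was the highest in 66 of 111 genes (59.5%), against 24.2% of all genes with a largest group mean of at least 5. Among the high libraries, replicate 3 was the highest in 50 genes and replicate 4 in 42, whereas replicate 2 was the lowest in 59. Over all such genes replicate 3 was the highest in 25.1%, replicate 4 in 27.6% and replicate 2 the lowest in 24.2%. Indoor replicate 3 was the highest indoor library in 47 members (42.3%), against 29.1% of all such genes. The median scaled FPKM over the members was 37.5, 39.1, 54.6 and 51.8 in high replicates 1 to 4.

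The very strongly risen genes picked out the same libraries. Middle replicate 1 was the highest middle library in 66 of 72 of them, indoor replicate 3 the highest indoor library in 55, and high replicate 3 or 4 the highest high library in 68. In middle replicate 1 the median log2 deviation from a gene's group mean was 0.258 in members and 0.638 in very strongly risen genes, and in middle replicate 2 it was -0.183 and -0.601. In high replicate 3 it was 0.176 in members and 0.182 in very strongly risen genes, and in high replicate 4 it was 0.175 and 0.275. The very strongly risen genes held 4.41% of the counts of middle replicate 1 and 2.04% of those of middle replicate 2. Their part in the members' deviations was not tested. In deposited FPKM high replicate 3 or 4 was the highest high library in 65 members in place of 92. Replicate 3 was the highest in 49 (44.1%), against 23.9% of all genes with a largest group mean of at least 5. Replicate 4 was the highest in 16 (14.4%), against 9.03% of all such genes. Middle replicate 1 was the highest middle library in 54 members (48.6%), against 13.05% of all such genes. Without middle replicate 1 the median log2 ratio of middle over indoor temperature over the members was 0.0652 in place of 0.165, and reapplying the rule gave 132 genes, 106 of them among the 111.

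**Figure D5:**
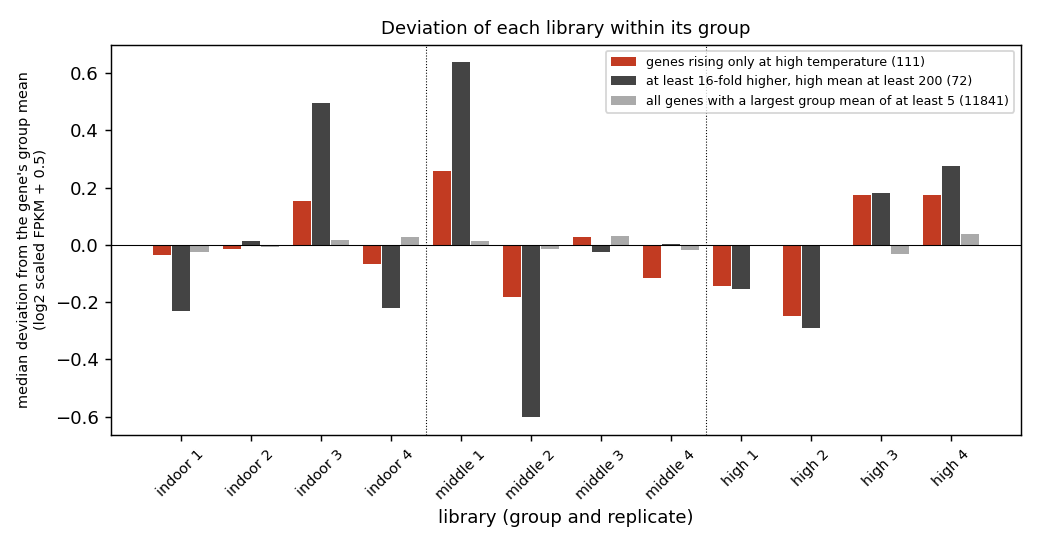
Bars give, for each library, the median over genes of the deviation of log2(scaled FPKM + 0.5) from the gene's mean in the same group, for the members, for the very strongly risen genes and for all genes with a largest group mean of at least 5. Middle replicate 1 and indoor replicate 3 are raised within their groups, high replicates 3 and 4 stand above high replicates 1 and 2, and the bars for all genes stay near 0.

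Single genes went against this order. Spipo10G0024800.v2 had 0, 0, 0.163 and 0 in indoor replicates 1 to 4, 0, 0, 0 and 0.436 in middle replicates 1 to 4 and 17.9, 18.1, 4.49 and 3.62 in high replicates 1 to 4. High replicates 1 and 2 were about level and high replicates 3 and 4 were far lower, opposite to most members and to Spipo10G0025100.v2, 3 steps away, which had 10403, 8578, 12903 and 15669.5 in high replicates 1 to 4. The estimated counts of Spipo10G0024800.v2 were only 74, 57, 14 and 12 in high replicates 1 to 4. Its values in high replicates 3 and 4 thus lay at or near the floor of 12 counts. The SD of log2 scaled FPKM over the high libraries was 1.18 for this gene, 0.963 for Spipo0G0172000.v2 and 0.952 for Spipo15G0015300.v2, the largest among the members. It was smallest for Spipo18G0025300.v2, at 0.0545, which had 6.01, 6.26, 6.3005 and 5.77 in high replicates 1 to 4 and 1.92, 1.46, 1.31 and 1.49 in indoor replicates 1 to 4. Spipo13G0003000.v2 followed at 0.0786 and Spipo5G0066700.v2 at 0.1304. The median SD over the members was 0.334 at indoor, 0.347 at middle temperature and 0.355 at high temperature, against 0.255, 0.224 and 0.2901 over all genes with a largest group mean of at least 5. Members could pass that limit through the high group alone. Their median scaled FPKM was 8.54 to 9.95 in the indoor libraries, against 15.98 to 16.05 over all such genes. The SDs were not compared at like levels, so nothing is read from the contrast.

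The length implied by a gene's counts and FPKM, taken relative to the median of well-counted genes, had a median of 0.789 over the members, with quartiles of 0.405 and 1.15. Over all genes with a largest group mean of at least 5 the median was 0.885, with quartiles of 0.528 and 1.36. The median was 0.495 over the very strongly risen genes and 0.869 over the 172 genes that were higher at both steps of temperature. The most abundant members differed in this measure, at 0.413 for Spipo1G0122100.v2, 0.305 for Spipo1G0122200.v2 and 1.47 for Spipo3G0042000.v2. These differences were not tested.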

How the data were processed

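Poly(A)-selected, dUTP-marked libraries with unique molecular identifiers were sequenced as read pairs, per the labels' protocols. Tools listed without roles in the submitters' processing notes were StringTie 1.3.4d, HISAT2 2.0.4 and cutadapt 1.9, beside edgeR, DESeq2 and UMI-tools. The genome build is not given in the sources used here, nor is the strand setting of the counting, so overlapping genes and near-identical copies are uncertain. The authors deposited FPKM and estimated counts per library, per the file headers. The estimated counts were whole as deposited and were used so. The deposited tables hold 1807 counts of 4 and 470 counts of 1, so 3 fragments of 4 counts were taken as the floor of 12 counts.

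The members follow the rule in the text. The members, lists and tests were chosen with earlier results of these data known. Genes named were the 10 largest ratios of high over indoor temperature, the 10 highest high means, the 5 highest indoor means, the 3 largest and 3 smallest SDs over high libraries, and those nearest each threshold; others are said to be chosen after their values were seen. Members at 0 in all indoor and middle libraries were also to be named, and there were none. edgeR 4.0.16 in R 4.3.3 (robust quasi-likelihood F-test, TMM, 12 libraries in 1 fit) tested genes that reached an FPKM of 1 in 4 or more libraries, with limma 3.58.1 and DESeq2 1.42.0 as alternatives. The common biological coefficient of variation was 30.1%. Identifier neighbours and the order of libraries were described after seeing the data.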

Additional observations from a re-analysis of the deposited data

Results flagged for a closer look

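Among 96 sets of 4 libraries of the named members, 12 had one extreme value standing so far from its nearest neighbour that the distance, as a share of the range, passed the 95% critical value of Dixon's test. Chance alone marks about 1 in 20 sets of normally distributed values that were not chosen by their spread. Some of the named members were chosen by their SD over the high libraries, so no excess is read from the 12. In some of them the 3 other libraries were listed at 0, so the mark means that a few counts were seen in a single library. The scaled FPKM of Spipo10G0025200.v2 was 0.106 in indoor replicate 1 and 0 in the other libraries of its group. The scaled FPKM of Spipo3G0004800.v2 was 0.112 in middle replicate 4 and 0 in the other libraries of its group. The scaled FPKM of Spipo10G0024800.v2 was 0.163 in indoor replicate 3 and 0 in the other libraries of its group. The scaled FPKM of Spipo10G0024800.v2 was 0.436 in middle replicate 4 and 0 in the other libraries of its group. 

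In high replicate 2, Spipo13G0007500.v2 had a scaled FPKM of 66.6, against 108 to 114 in the others of its group. Spipo13G0003000.v2 stood at 5.12 in indoor replicate 3 and at 2.102 to 2.46 in the rest of the group. In high replicate 1, Spipo13G0003000.v2 had a scaled FPKM of 8.94, against 9.94 to 10.1 in the others of its group. Spipo4G0030600.v2 stood at 4.71 in high replicate 2 and at 7.11 to 7.53 in the rest of the group. In indoor replicate 3, Spipo0G0071800.v2 had a scaled FPKM of 0.964, against 2.41 to 2.61 in the others of its group. Spipo0G0071800.v2 stood at 13.9 in high replicate 3 and at 4.01 to 4.87 in the rest of the group. In indoor replicate 2, Spipo0G0042500.v2 had a scaled FPKM of 2.504, against 0.495 to 0.609 in the others of its group. Spipo0G0042500.v2 stood at 1.11 in middle replicate 1 and at 0.382 to 0.484 in the rest of the group. The cause of these single values was not tested.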

How the results depend on the processing

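Of 1728 ratios of named members under the alternatives, 1661 moved by less than the spread between replicates, 40 moved by more in deposited FPKM and 27 with another amount added, and 0 called ratios changed sign. The rule chose members whose high mean was at least 2.5 times both others, so nothing is read from the lack of sign changes. The number of member genes, 111, was 42 with deposited FPKM, 194 with a fold of 2, 72 and 176 with a narrower and a wider limit on middle over indoor temperature, and 182 without a minimum for the largest group mean; it was 95 to 132 without each library in turn, and 113 and 115 with TMM and DESeq2 scaling. In deposited FPKM the median log2 ratios over the members were 1.3997 for high over indoor and 1.05 for high over middle temperature, against 2.01 and 1.84 as reported. The genes called between high and indoor temperature, 4992, numbered 9869 with library totals and 9950 with limma on log2(FPKM + 1); between high and middle temperature, 4616 became 10067 and 10331. Members called between middle and indoor temperature, 3, numbered 11 with library totals, 5 with DESeq2, 9 with limma, 1 without a filter, 1 with the replicate number as a block and 0 to 7 without each library in turn (7 without indoor replicate 3, 0 without middle replicate 1). Over all genes the calls in this comparison, 5614, numbered 5198 with library totals, 6286 with DESeq2 and 5638 with limma. They numbered 5532 without a filter, 5072 with the block and 4633 to 5857 without each library in turn. The cause was not tested. With the replicate block 110 and 109 members were called in the comparisons with high temperature; same-numbered libraries deviated together above 0.1 in 2 of 12 pairs (correlation -0.248 to 0.232), so the numbers were not taken to pair the samples. The members 1 step from a very strongly risen gene, 14, numbered 10 with deposited FPKM and 11 to 15 without each library in turn; these alternatives, those for the order of libraries and leaving out high replicates 3 and 4 together, which gave 103 genes, were chosen after seeing the data. Depth limits the 8 genes with an indoor mean under 1, whose ratios rest on the 0.5 added.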
